A study of Mus musculus with 6 samples.

Results

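The 10 genes described here, Dntt, Il7r, Rag2, Ccr7, Ccr9, Satb1, Sox4, Notch1, Ikzf1 and Cd27, belong to the early lymphoid programme of multipotent progenitors. They were chosen by name, with earlier results of these data known, and all 10 were measured, among 22180 genes with a probe set of their own. LSK cells (lineage-negative, Sca1-positive and cKit-positive), the bone marrow fraction that holds stem cells and multipotent progenitors, were sorted from mice carrying transplanted marrow of genotype Tifab-/- (KO, 3 arrays) or Tifab+/+ (WT, 3 arrays). The product of Tifab resembles TIFA, which works with TRAF6, and the study asked how the profile of these cells differed after engraftment and before overt failure of blood formation. Both groups share the transplant setting: the labels name lethally irradiated Boy/J recipients, given 7 and 4.75 Gy 3 hours apart, and 3 mice a group. Whether the 3 months they mention count from birth or from the transplant is unclear, and they name no donor marker in the sort, so cells of the host may be among those profiled.

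Lymphoid priming is the low-level transcription of lymphoid genes in progenitors that have not yet lost other fates. Transcription factors such as Ikaros open the programme, Notch1 and the interleukin-7 receptor carry the signals that T and B lineage precursors need, chemokine receptors guide progenitors to the thymus, and terminal transferase and the RAG proteins act later on antigen receptor genes. In the marrow this programme marks the lymphoid-primed multipotent progenitors within the LSK fraction.

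Promoter windows of RefSeq (GRCm38.p6, from 250 bases before to 50 after a gene's start) were at hand for 9 members, in 14 windows, with Ccr7 named only. The windows printed here belong to the members whose groups did not overlap: Dntt, Sox4 and Notch1 measured lower in every KO array than in any WT array, and Cd27 measured higher. Capitals mark the E-box CANNTG, the sequence bound by E proteins such as E2A, and the core TGGGAA bound by Ikaros, each on either strand.
Dntt: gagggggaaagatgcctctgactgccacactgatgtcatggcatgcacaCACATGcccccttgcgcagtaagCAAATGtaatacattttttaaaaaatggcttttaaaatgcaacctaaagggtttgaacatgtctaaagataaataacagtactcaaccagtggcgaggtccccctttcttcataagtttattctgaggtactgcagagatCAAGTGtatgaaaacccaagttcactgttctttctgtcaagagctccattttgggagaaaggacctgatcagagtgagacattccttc
Sox4: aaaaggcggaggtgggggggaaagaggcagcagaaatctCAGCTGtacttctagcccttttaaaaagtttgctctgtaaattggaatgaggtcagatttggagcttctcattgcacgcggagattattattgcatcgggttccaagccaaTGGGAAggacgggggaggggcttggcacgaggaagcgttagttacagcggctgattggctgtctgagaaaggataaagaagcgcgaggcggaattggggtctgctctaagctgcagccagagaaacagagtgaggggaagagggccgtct
Notch1: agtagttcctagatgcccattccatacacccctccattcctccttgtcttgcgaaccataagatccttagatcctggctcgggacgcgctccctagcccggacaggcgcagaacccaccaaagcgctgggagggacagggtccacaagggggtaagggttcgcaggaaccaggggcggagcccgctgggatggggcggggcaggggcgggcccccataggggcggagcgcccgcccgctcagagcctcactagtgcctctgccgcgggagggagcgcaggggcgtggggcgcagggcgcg
Cd27: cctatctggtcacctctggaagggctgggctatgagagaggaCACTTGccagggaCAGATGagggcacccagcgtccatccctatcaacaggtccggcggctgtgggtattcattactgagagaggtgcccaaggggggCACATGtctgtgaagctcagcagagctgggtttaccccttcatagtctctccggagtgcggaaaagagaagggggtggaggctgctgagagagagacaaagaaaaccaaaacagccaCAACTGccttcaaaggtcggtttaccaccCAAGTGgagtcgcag
These windows lie at chr19:41029025-41029324 (plus strand), chr13:28953650-28953949 (minus), chr2:26503773-26504072 (minus) and chr6:125236978-125237277 (minus). The Dntt window held 3 E-boxes, the nearest 38 bases before the start, the Cd27 window held 5, and the Sox4 window held 1, besides 1 TGGGAA 100 bases before its start. E-boxes stood in 72.3% of 32851 promoter windows and TGGGAA in 25.6%, so these matches are common ones. None of the 4 windows held the RBPJ sequence GTGGGAA, which contains TGGGAA or the RUNX sequence TGTGGT, which stood in 6.38% and 16.8% of all windows. The Notch1 window had no capitals and 68.3% G and C, against 42.3% in the Dntt window.

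The lymphoid priming genes did not move as a block. Ccr7, Sox4, Dntt and Notch1 measured lower in all 3 KO arrays than in any WT array, Cd27 measured higher, and the groups overlapped for Il7r, Rag2, Ccr9, Satb1 and Ikzf1. Values are log2 probe set signals as deposited, and differences are KO minus WT in log2 units from limma, fitted on all genes. No member passed an adjusted p of 0.05 in limma, nor did any of the 22180 genes (0%), of which 2274 (10.3%) had an unadjusted p under 0.05. At that unadjusted level 2 of 10 members, Ccr7 and Sox4, were lower, against 5.51% of all genes, and 0 of 10 were higher, against 4.74%. Both shares varied with signal level, as given in the last section. Groups that did not overlap were found as lower for 4 of 10 members, against 8.37% of all genes, and as higher for 1 of 10, against 7.75%. The median difference over the members was -0.05, with 6 below 0 and 4 above, and the median over all genes was 5.9e-05. Since the cells were profiled in bulk, fewer cells carrying a transcript and less of it per cell cannot be told apart.

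**Figure D1:**
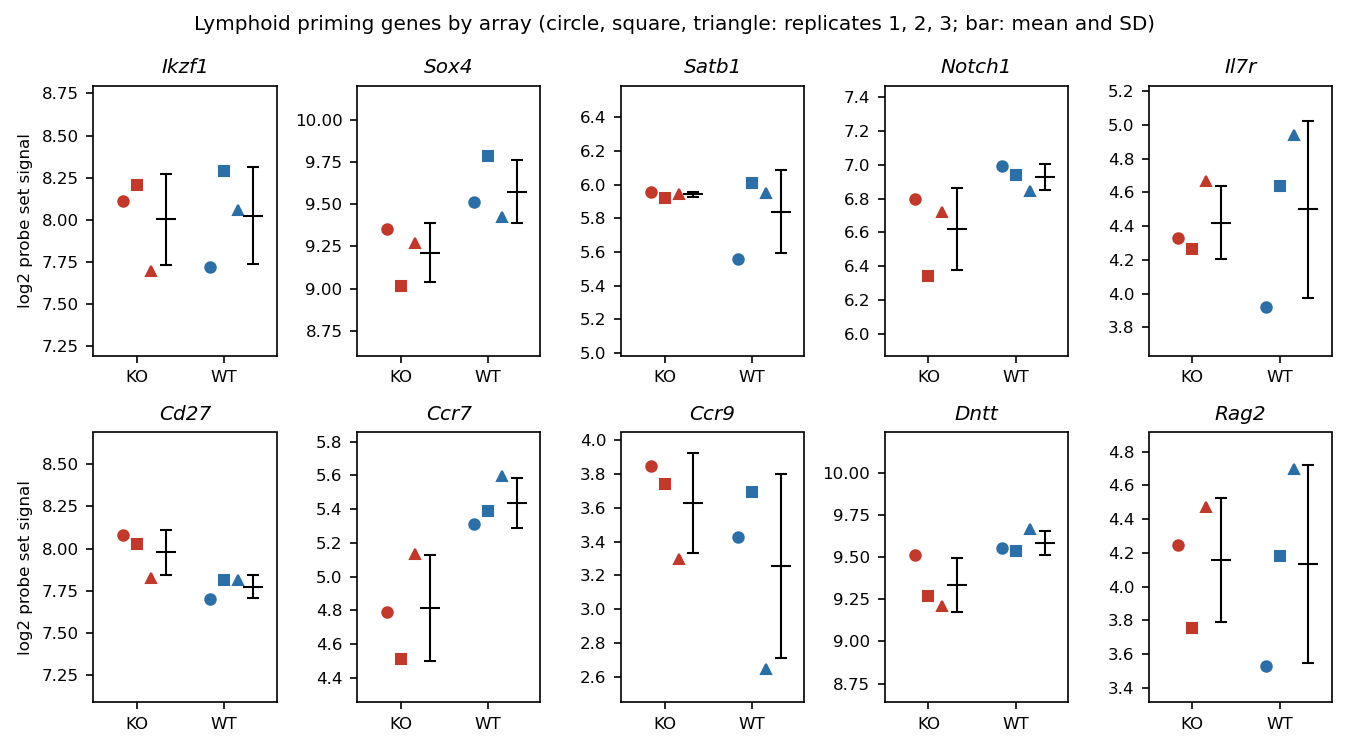
Log2 probe set signal of each lymphoid priming gene on the 3 KO arrays (red, left) and the 3 WT arrays (blue, right), with the group mean and SD as a black bar; all panels span the same number of log2 units. Ccr7, Sox4, Notch1 and Dntt lie lower in all 3 KO arrays, Cd27 lies higher, and the other 5 genes overlap.

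Among the transcription factors and Notch1, Sox4 had the largest difference, and Notch1 separated the groups as well. Sox4 encodes an HMG-box factor that early B cell development needs. Its signal was 9.35, 9.02 and 9.27 in the KO arrays, against 9.51, 9.79 and 9.42 in the WT arrays. The groups did not overlap, and KO replicate 2 was the lowest of the 6 arrays. The difference was -0.36 ± 0.13 (SE; 95% interval -0.66 to -0.06), or 0.778 of the WT level, at an unadjusted p of 0.0230 and an adjusted p of 0.422 in limma. A second, dimmer Sox4 probe set read 8.18, 8.10 and 8.14 in the KO arrays, against 8.23, 8.58 and 8.19 in the WT arrays. There the groups only just failed to overlap, between 8.18 in KO replicate 1 and 8.19 in WT replicate 3. The difference was smaller, at -0.19 ± 0.14 (SE, unadjusted p = 0.192 in limma). The largest WT value came from WT replicate 2 on both probe sets. The difference of the first probe set was -0.26 without WT replicate 2 (unadjusted p = 0.0940 in limma) and -0.26 without KO replicate 2 (0.0915).

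Notch1 encodes the receptor whose signal directs progenitors to the T lineage. It measured 6.80, 6.34 and 6.72 in the KO arrays, against 6.99, 6.94 and 6.84 in the WT arrays. All KO values lay below all WT values, the nearest by a small gap, and KO replicate 2 stood well under the other arrays. The difference was -0.31 ± 0.16 (SE, 0.808 of the WT level), with an unadjusted p of 0.0920 and an adjusted p of 0.545 in limma. Without KO replicate 2 it was -0.17, so that array carried much of its size.

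Ikzf1 and Satb1 gave no separation. Ikzf1 encodes Ikaros, the zinc-finger factor at the head of the programme, and measured 8.11, 8.21 and 7.70 in the KO arrays, against 7.72, 8.29 and 8.06 in the WT arrays. Each group held 1 low array, and the difference was -0.02 ± 0.19 (SE; interval -0.44 to 0.40). Satb1, a chromatin organiser that promotes lymphoid fate in stem cells, measured 5.95, 5.92 and 5.95 in the KO arrays, against 5.56, 6.01 and 5.95 in the WT arrays. Its KO values were close together (SD 0.017, n = 3), WT replicate 1 lay apart from the other WT arrays (SD 0.24, n = 3), and the difference was 0.10 ± 0.17 (SE; interval -0.28 to 0.48).

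Of Cd27 and Il7r, which encode receptors of extracellular ligands, Cd27 was the one member on the higher side without overlap. CD27 is a TNF receptor family protein on multipotent progenitors and lymphocytes that binds CD70. Its signal was 8.08, 8.03 and 7.83 in the KO arrays, against 7.70, 7.81 and 7.81 in the WT arrays. The lowest KO array stood only just above the highest WT array, and the difference of 0.20 ± 0.13 (SE; interval -0.09 to 0.49) had an unadjusted p of 0.148 and an adjusted p of 0.613 in limma. Il7r, the alpha chain of the interleukin-7 receptor, measured 4.33, 4.26 and 4.67 in the KO arrays, against 3.92, 4.64 and 4.94 in the WT arrays. The KO values lay inside the WT range, whose SD was 0.53 (n = 3) against 0.22 in the KO arrays. The difference was -0.08 ± 0.26 (SE; interval -0.66 to 0.50), and it turned to 0.14 without WT replicate 3. The mean signal of Il7r lay at percentile 50.8 of all genes.

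Of the chemokine receptor genes, Ccr7 measured lower in the KO arrays and Ccr9 did not separate the groups. CCR7 guides lymphoid progenitors and mature lymphocytes to the thymus and lymph nodes, and its gene had the largest difference and the smallest p of the 10. Ccr7 measured 4.79, 4.51 and 5.13 in the KO arrays, against 5.31, 5.39 and 5.60 in the WT arrays. The 3 WT values were close to each other, all KO values lay below them, and KO replicate 2 was again the lowest. The difference was -0.62 ± 0.19 (SE; interval -1.06 to -0.19), or 0.650 of the WT level, at an unadjusted p of 0.0101 and an adjusted p of 0.362 in limma. Ccr7 ranked at 615 of 22180 genes by p, with a mean signal at percentile 60.3 of all genes. Under 15 alternative settings the difference stayed between -0.78 and -0.47, with an unadjusted p under 0.05 in limma in each. Its adjusted p lay between 0.298 and 0.661.

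CCR9, the receptor for the thymic and gut chemokine CCL25, is the other homing receptor of the set. Ccr9 measured 3.85, 3.74 and 3.30 in the KO arrays, against 3.43, 3.69 and 2.64 in the WT arrays. WT replicate 3 lay far under the other arrays, and the groups overlapped. The difference of 0.37 ± 0.27 (SE; interval -0.23 to 0.98) was 0.07 without that array. The gene's mean signal lay at percentile 30.6 of all genes, and no detection calls were at hand.

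**Figure D2:**
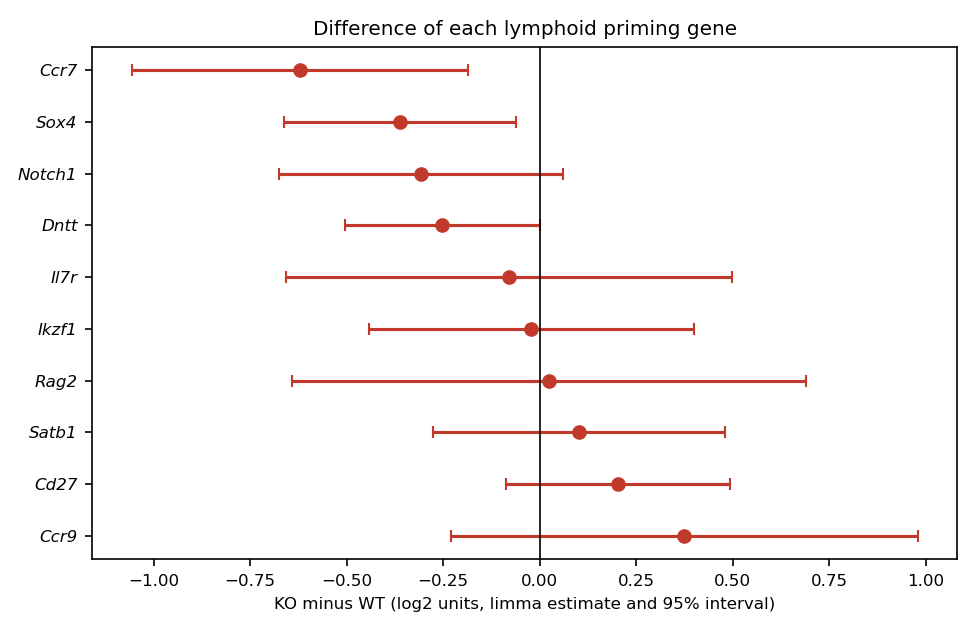
Difference KO minus WT in log2 units for each lymphoid priming gene, as the limma estimate (point) with its 95% interval (bar). The intervals of Ccr7 and Sox4 lie below 0, that of Dntt ends at 0.00059, and those of the other 7 genes span 0.

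The antigen receptor enzymes differed in how well they were measured. Dntt encodes terminal deoxynucleotidyl transferase, which adds untemplated nucleotides at the joints of antigen receptor genes and marks the earliest lymphoid progenitors. It measured 9.52, 9.27 and 9.21 in the KO arrays, against 9.55, 9.54 and 9.67 in the WT arrays. KO replicate 1 lay just below the lowest WT array, and the other KO arrays lay further down. The difference was -0.25 ± 0.11 (SE, 0.840 of the WT level), with an unadjusted p of 0.0504 and an adjusted p of 0.489 in limma. Over 15 alternatives the difference stayed between -0.34 and -0.19, with an unadjusted p under 0.05 in 5 and above it in 10. The p ran between 0.0153 after cyclic loess, which removes differences that follow signal level, and 0.152 without KO replicate 3. Rag2, a subunit of the recombinase, measured 4.25, 3.76 and 4.47 in the KO arrays, against 3.53, 4.18 and 4.70 in the WT arrays. The arrays of each group were spread over most of the same range, and the difference was 0.02 ± 0.30 (SE; interval -0.64 to 0.69). The mean signal of Dntt lay at percentile 98.3 of all genes and that of Rag2 at 45.3. A further probe set that lists both Rag2 and Iftap was not used.

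Single arrays held the lowest value for several members. WT replicate 1 held the lowest of the 6 values for 4 members (Il7r, Rag2, Satb1 and Cd27). KO replicate 2 did so for 3 (Ccr7, Sox4 and Notch1) and KO replicate 3 for 2 (Dntt and Ikzf1). The same share over all genes was not counted, so whether these counts are particular to the members is not known. Averaged over the 10 members after centring each gene, the KO arrays stood at 0.05, -0.15 and -0.03 and the WT arrays at -0.13, 0.17 and 0.11. KO replicate 2 and WT replicate 1 were therefore about equally low. Without WT replicate 1 the median difference of the members was -0.27 with 8 of 10 below 0, and without WT replicate 3 it was 0.03 with 5 of 10 below 0. Across all genes, the correlation of WT replicate 1 with the other arrays averaged 0.976, the lowest of the 6, where the others had 0.979 to 0.982.

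**Figure D3:**
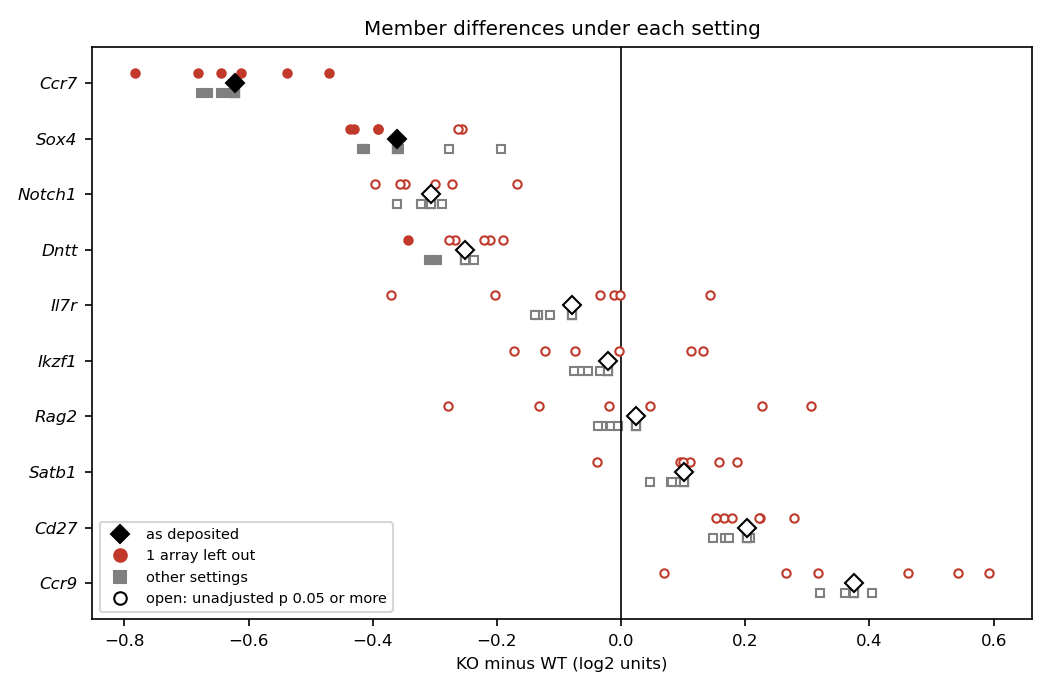
Difference KO minus WT in log2 units of each member as deposited (black diamond), with 1 array left out (red circles) and under other settings (grey squares); filled symbols have an unadjusted p under 0.05. All Ccr7 symbols are filled and lie at -0.47 or lower, those of Notch1 are open, and those of Il7r, Ikzf1, Rag2 and Satb1 fall on both sides of 0.

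The wider early lymphoid programme was set beside the members. Over all genes, 5.51% were lower and 4.74% higher at an unadjusted p under 0.05 in limma. The counts of each list below are to be read beside these shares. Of 28 further lymphoid transcription factor genes, 20 measured higher and 8 lower, with a median of 0.14. Unadjusted p-values under 0.05 were found for 2 on the higher side and 0 on the lower: Myb, a factor that progenitors and early lymphocytes need, at 0.29 ± 0.12 (SE), and Runx3, a RUNX factor of T and NK cells, at 0.38 ± 0.17 (SE). Over the alternatives the unadjusted p reached 0.123 for Myb and 0.164 for Runx3 in limma. Etv6 had 0.20 and the Ikaros relative Ikzf2 -0.26, or 0.12 and -0.14 without KO replicate 2. Spi1, the gene of PU.1, had 0.15 (0.03 without WT replicate 1), Mef2c 0.08 (-0.0049 without WT replicate 2), and Ebf1, which commits cells to the B lineage, 0.27 (0.17 without KO replicate 3).

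Among 21 lymphoid surface and receptor genes, 1 on each side had an unadjusted p under 0.05 (5.51% of all genes lower, 4.74% higher). Cd7, an immunoglobulin superfamily gene of early T and NK cells, averaged 5.21 in the KO arrays and 4.24 in the WT arrays, a difference of 0.96 ± 0.29 (SE). Ltb, the gene of lymphotoxin beta, averaged 7.45 in the KO arrays and 7.98 in the WT arrays, a difference of -0.53 ± 0.17 (SE). Cd53, a tetraspanin gene of leukocytes, had 0.30. Flt3, the cytokine receptor gene that defines lymphoid-primed progenitors, measured 8.27, 8.48 and 8.12 in the KO arrays, against 8.44, 8.56 and 8.58 in the WT arrays. Its groups overlapped, and the difference was -0.24 ± 0.13 (SE, unadjusted p = 0.0984 in limma), or -0.15 without KO replicate 3. In the recombination and surrogate receptor list 0 of 14 genes had an unadjusted p under 0.05 in limma. Its 4 smallest were Nhej1, an end-joining factor gene, at -0.70 ± 0.34 (SE; -0.36 without WT replicate 2), Prkdc at 0.29, Ighm at 0.19 (0.09 without WT replicate 2, 0.07 after cyclic loess) and Hmgb1 at 0.18 (0.10 without KO replicate 2).

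The pathways around the receptors were mixed in direction. Of 32 Notch pathway genes besides Notch1, 5 had an unadjusted p under 0.05 (10.3% of all genes). Of these, 3 were lower (5.51% of all genes) and 2 higher (4.74%), and the list's median was -0.01. The lower ones were the Deltex family gene Dtx3 at -0.48 ± 0.17 (SE), the Notch target gene Hey1 at -0.63 ± 0.24 (SE) and Aph1a, a gamma-secretase subunit gene, at -0.39 ± 0.17 (SE). Aph1a had -0.07 as the mean of its probe sets. On the higher side were Lfng, whose product is a sugar transferase that modifies Notch receptors, at 0.42 ± 0.17 (SE) and, named after its value was seen, the coactivator gene Maml2 at 0.41. The groups overlapped for Dtx3, Hey1, Aph1a and Lfng, and not for Maml2. Without KO replicate 1 Dtx3 had -0.38 and Lfng 0.34, and without WT replicate 2 Hey1 had -0.42. Without KO replicate 2 Aph1a had -0.29 and Maml2 0.27. Each of these fits had an unadjusted p above 0.05 in limma for the gene named. Rbpj, the DNA-binding partner of Notch, had -0.08, Notch2 -0.10, and the target genes Hes1 and Dtx1 0.11 and 0.0027, each within 1 SE of 0. With 1 array left out Rbpj reached 0.10 (without KO replicate 2), Hes1 -0.23 and Notch2 -0.03 (both without KO replicate 1) and Dtx1 -0.09 (without KO replicate 3).

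In the interleukin-7 receptor pathway 2 of 22 genes had an unadjusted p under 0.05, both on the lower side (5.51% of all genes). Socs1, a feedback inhibitor of cytokine receptors, averaged 5.28 in the KO arrays and 5.94 in the WT arrays, a difference of -0.66 ± 0.15 (SE, adjusted p = 0.297 in limma), and kept an unadjusted p under 0.05 in all 15 alternatives. Foxo3, a forkhead factor gene restrained by this pathway, had -0.40 (-0.25 without WT replicate 2). Myc had 0.25 (0.12 without WT replicate 1), and the survival gene Bcl2 0.36 (0.20 without WT replicate 1).

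The chemokine list of 12 genes held 1 lower (5.51% of all genes) and 1 higher (4.74%). Ccr3, a receptor gene of eosinophils, differed by -0.97 ± 0.22 (SE) at a dim signal (percentile 13.2 of all genes), and Ccr10 by 0.70 (0.42 without WT replicate 1). Ccr8 and Cxcr5 had 0.49 and -0.37, or 0.24 without KO replicate 1 and -0.15 without WT replicate 2. Of 11 CD27 pathway genes, Birc3, the gene of the TRAF2-binding protein cIAP2, had -0.40 ± 0.17 (SE; -0.25 without KO replicate 3) and 0 were higher. The ligand gene Cd70 had 0.02 at a signal near the floor (percentile 8.83), Tnfrsf9 -0.30, Cd40 0.34 (0.18 without KO replicate 1) and Birc2 -0.27 (-0.05 without WT replicate 1). No family relative of the members had an unadjusted p under 0.05 in limma (0 of 13). The Sox4 relatives Sox11 and Sox12 had 0.43 and -0.13 (Sox12 -0.01 without WT replicate 2), the Ikaros relative Ikzf4 0.29 and the DNA polymerase gene Polb 0.39. Sox11 and Polb came down to 0.22 without WT replicate 2 and 0.21 without KO replicate 2.

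**Figure D4:**
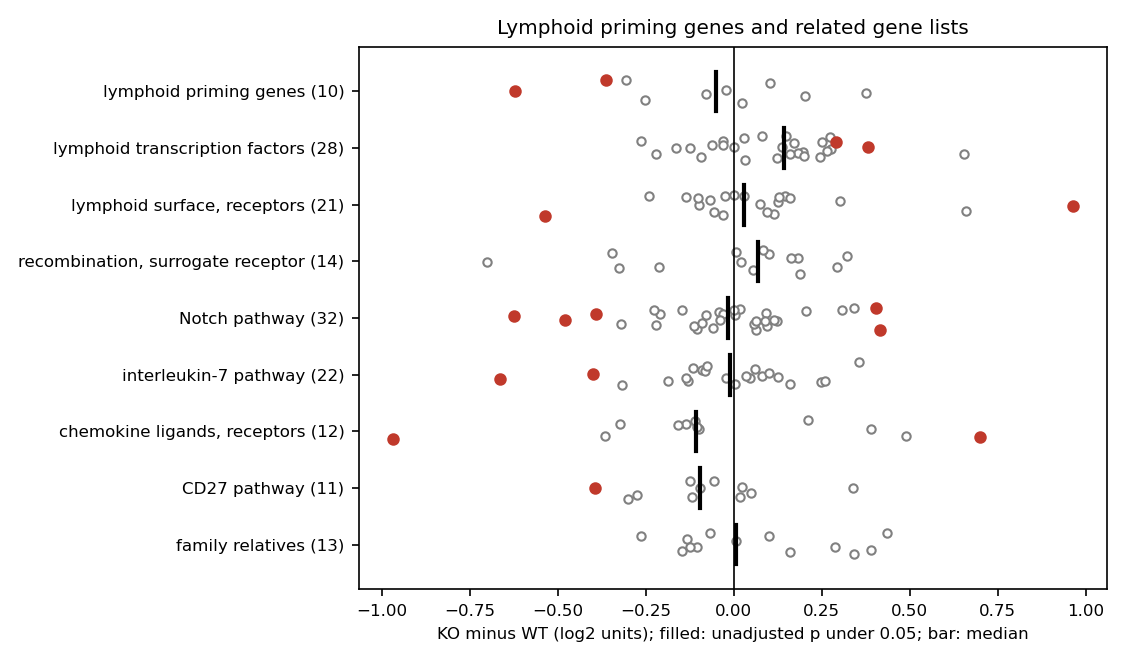
Difference KO minus WT in log2 units of each measured gene (points; filled where the unadjusted p is under 0.05) in the lymphoid priming set and 8 related lists, with the number of genes in parentheses and the median as a black bar. Medians lie between -0.11 and 0.14, and filled points fall on both sides of 0 in the surface, Notch and chemokine lists.

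Profiles over the 6 arrays were compared as a description, by the root mean square difference between centred log2 values among 11089 other genes above the median signal. Nearest to Ccr7 were Ubxn2b (0.10), Eif6 (0.10) and Pgap3 (0.11), against a spread of 0.37 in Ccr7 itself. Sumo3, Cenpx and Btg1 were nearest to Sox4 (0.045 to 0.051), and Ubash3b, Ppp1r14b and Lmnb1 to Dntt (0.019 to 0.042).

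The targeted gene, Tifab, gave no check on the labels: its probe set measured 5.21, 5.12 and 5.26 in the KO arrays, against 4.99, 5.37 and 5.53 in the WT arrays, and the position of its probes relative to the deletion is not known here. Every direction therefore rests on the labels. All 13 measured LSK markers lay above the median signal, with Kit between 9.41 and 9.59 in the KO arrays and between 9.50 and 9.69 in the WT arrays, and Ly6a was not analysed here. The same held for all 12 neutrophil, 7 erythroid and 8 megakaryocyte markers, so this level does not set LSK cells apart from other cells. The 13 LSK markers summed to 4887 to 4983 in linear signal in the KO arrays, above 4508 to 4784 in the WT arrays. Markers of cells that also use these genes overlapped between the groups in summed linear signal: 12 T cell markers at 450 to 498 in the KO arrays and 404 to 481 in the WT arrays, and 11 of conventional dendritic cells at 1991 to 2374 in the KO arrays and 1686 to 2256 in the WT arrays. The 11 plasmacytoid dendritic cell markers summed to 1417 to 1476 in the KO arrays and 1094 to 1700 in the WT arrays, and the 11 B cell markers to 6318 to 6829 in the KO arrays and 4915 to 7167 in the WT arrays. Those of NK and innate lymphoid cells (11), neutrophils (12), erythroid cells (7), megakaryocytes (8) and stroma (11) overlapped as well. A linear sum follows its brightest genes. Ighm averaged 12.5 in the KO arrays and 12.3 in the WT arrays, and Nkg7 9.73 and 9.77, in log2 signal. The B cell and NK sums therefore rest mostly on Ighm and on Nkg7. Some lymphoid markers varied widely among the WT arrays. Cd79a had an SD of 1.29 there (0.47 in the KO arrays), and Ly6d 1.28 (0.56), whereas Ms4a1 had 0.18 (0.16), each with n = 3. The difference of Cd79a was 0.40, or -0.21 without WT replicate 1, and that of Ly6d 0.66, or 0.20 without that array. Over all genes, 5.51% were lower and 4.74% higher at an unadjusted p under 0.05 in limma. Such p-values were found for 0 of 12 T cell, 0 of 11 B cell, 0 of 11 conventional dendritic cell, 0 of 7 erythroid and 0 of 11 stromal markers. They were found as lower for 2 of 12 neutrophil markers (Mmp8 at -0.85, or -0.56 without KO replicate 3, and Cd177 at -0.42) and 2 of 8 megakaryocyte markers (Gp5 at -0.52 and Treml1 at -0.45). On the higher side were 1 of 11 NK and innate lymphoid markers (Klrd1 at 0.63) and 1 of 11 plasmacytoid dendritic cell markers (Cd300c at 0.64). Of the 13 LSK markers, Meis1 and Cdk6 were higher at 0.39 and 0.32 and Hlf lower at -0.33, and of the 13 monocyte and macrophage markers, Ly6c2 and C1qa were higher at 1.13 and 0.52 and Vcam1 and C1qb lower at -0.74 and -0.51. The 13 monocyte and macrophage markers summed to 3500 to 4699 in the KO arrays, above 2010 to 3311 in the WT arrays, and without Ly6c2 to 1191 to 1291 in the KO arrays and 1038 to 1314 in the WT arrays, which overlap. Their part in the differences of the lymphoid genes was not tested.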

How the data were processed

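RNA of LSK cells from 3 KO and 3 WT samples was measured on 1 Affymetrix mouse gene array each, so the number of arrays limits the precision. The authors deposited log2 probe set signals made, per the submitters' processing notes, with Affymetrix Expression Console; no source used here gives its version, background correction or normalization. Array medians lay between 4.05 and 4.10, and an equalising method hides changes in total RNA. Of 41345 probe sets, 23521 had 1 symbol in the platform annotation, 1814 had several and 16010 were unlisted; the brightest stood for a gene. The 22180 genes were tested with limma 3.58.1 in R 4.3.3 (intensity trend, genotype as the only term, two-sided, Benjamini-Hochberg adjustment), after a test on simulated data. With 3 arrays a group an exact permutation test cannot go below 0.10. That samples came from separate mice rests on the labels. Same-numbered arrays did not deviate together (r = 0.02, -0.031 and -0.088 across genes). No pairing by number was seen, though such correlations cannot exclude one.

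The members and gene lists were chosen with earlier results of these data known. Named were all members, Tifab, up to 4 genes per related list with the smallest p, further genes by role, and the 3 nearest profiles of the 3 members with the smallest p. Alternatives were the eBayes trend and robustness, array weights, 3 normalizations, a filter on dim genes, the choice of probe set, the replicate block and each array left out. Listed genes that lack a single-symbol probe set, such as Rag1 and Il2rg, were not analysed here.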

Additional observations from a re-analysis of the deposited data

How the results depend on the processing

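Ccr7, Sox4, Dntt, Notch1 and Cd27 kept their direction under all 15 alternatives run on every gene, and Ccr9 under the 14 that gave it a value. Ccr7 had an unadjusted p under 0.05 in all 15 and Sox4 in 11, Dntt in 5, and Notch1 and Cd27 in 0. The count of members lower at that level was 1 without the eBayes trend (5.26% of all genes), where Sox4 had an unadjusted p of 0.0508 in limma. It was 3, with Dntt added, after quantile normalization (4.63% of all genes), median centring (8.31%) and cyclic loess (4.78%). Median centring also took the median of all genes to -0.055. With 1 array left out the count ran between 1 and 3, and the share of all genes between 3.84% and 6.62%. The count of higher members was 0 throughout, against 3.03% to 5.73% of all genes. With 1 array left out, between 0 and 1 gene of all passed the adjusted threshold: Iglv1 without WT replicate 3 and Prg2 without KO replicate 2. The median of the members ran between -0.27 and 0.03 with 1 array left out.

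Rag2, at 0.02, turned to -0.017 with array weights, -0.0045 after quantile normalization, -0.030 after median centring and -0.036 after cyclic loess. With 1 array left out Rag2 ran between -0.28 and 0.31 (below 0 without WT replicate 1, KO replicate 1 or KO replicate 3), Satb1 between -0.038 and 0.19 (below 0 without WT replicate 1), Il7r between -0.37 and 0.14 (above 0 without WT replicate 3) and Ikzf1 between -0.17 and 0.13 (above 0 without WT replicate 2 or KO replicate 3). The cause was not tested. With the replicate block, 2 members were lower (5.32% of all genes) and 0 higher (4.23%). Ccr7 then had an unadjusted p of 0.00899 and Sox4 of 0.0453 in limma. Ccr9 lay under the 40th percentile and had no value after that filter. The monocyte sum without Ly6c2 was added after seeing the data. The median difference varied with signal level: it was -0.17 in the dimmest decile of genes, 0.06 in the fifth and the sixth, 0.0051 in the ninth, where Notch1 lies, and 0.05 in the brightest, where Dntt, Sox4, Ikzf1 and Cd27 lie. The shares with an unadjusted p under 0.05 in limma varied as well. They were 17.9% lower and 0.676% higher in the dimmest decile, and 3.52% and 5.14% in the seventh, where Ccr7 lies. In the brightest they were 4.15% lower and 8.88% higher.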
